A study of Mus musculus with 6 samples.

Results

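The genes described here make, modify and move sterols and fatty acids, and were followed in whole mouse uteri after estradiol, the chief estrogen of the ovary, was injected once. The set was defined by gene symbol and not by any measured value: 33 symbols cover sterol synthesis (18), control of the pathway (3), fatty acid synthesis (7), and sterol transport and efflux (5). Of these, 26 genes were read by 39 probe sets among the 8251 genes named on the array. The other 7 (Acat2, Pmvk, Srebf2, Acaca, Fads2, Stard4 and Nr1h2) had no probe set with their name and were not analysed here.

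Female C57BL/6 mice aged 10 to 11 weeks were ovariectomised, which removes the main source of estrogen, and were killed 7 days later. They received vehicle, or 0.05 µg of estradiol per mouse, under the skin, and their uteri were pooled before RNA extraction. There is 1 Affymetrix U74Av2 array for each of vehicle (24 h after injection) and 1, 3, 6, 12 and 24 h after estradiol. All groups, vehicle included, were ovariectomised, and no array of intact mice was analysed here. The labels state 10 mice without saying whether that is per group. With 1 array of pooled tissue a group there is no replicate, so no difference could be set against an error, none was tested, and each fold describes a pair of arrays. The 1, 6, 12 and 24 h comparisons share the vehicle array, and only the one at 24 h matches it in time since injection. In whole uterus, a change in the share of a cell type and a change in RNA per cell cannot be told apart.

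Cholesterol is built from acetyl-CoA through mevalonate, farnesyl pyrophosphate and squalene. Most enzymes of this route are controlled together by the SREBP transcription factors, which are released to the nucleus when membrane sterol is low, commonly with the factor NF-Y bound nearby at a CCAAT box. Fatty acid synthesis also responds to SREBP and to the oxysterol receptors called LXR. The same LXR receptors raise the sterol exporters ABCA1 and ABCG1 when sterol is plentiful. The uterus responds to estrogen with growth and division of its epithelium, which need membrane lipid.

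Before the results, the array labelled 3 h has to be set apart. It correlated with the other 5 arrays across probe sets at a Spearman's rho of 0.843 to 0.857, whereas those 5 correlated among themselves at 0.929 to 0.968. Many markers of uterine tissue were low on it. The summed signal of 8 smooth muscle markers was 4445, against 39007 in vehicle and 30218 to 56638 at the other times, and the uterine homeobox gene Hoxa11 read 14.6 against 2662 in vehicle. Of 14 uterine epithelium markers, 9 lay below the detection floor on it, against at most 1 on any other array. The epithelial sum was nevertheless 21992 there against 17427 in vehicle, with the genes of the secreted proteins Ltf (4.15-fold) and Lcn2 (43.9-fold) higher, while 10 of the 14 were at least 2-fold lower. Of 10 stromal markers 5 were at least 2-fold lower and 2, the collagens Col1a1 and Col1a2, at least 2-fold higher, with a sum of 74612 against 61090. The summed signal of 5 skeletal muscle markers was 49296, against 511 to 2885 at the other estradiol times. The labelled tissue is therefore not borne out by most of its epithelial and smooth muscle markers on that array, and its values are given apart. On the other 5 arrays these markers of uterus were present. The vehicle array had a higher sum of 4 pancreatic acinar markers (3653) than the estradiol arrays at 1, 6, 12 and 24 h (822 to 1704), and the part of that in the results was not tested.

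Signals are MAS5 intensities scaled to a common mean. A floor of 142.8 signal units stands for the limit of detection, and a fold against a value below it is given as "at least". Each gene is represented by its brightest probe set. Of the 26 genes, 19 were at or above the floor on all 5 arrays kept together, and Insig1, which encodes the sterol-sensing retention protein of SREBP, was below it on each of them.

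The upstream sequences of the genes that stood highest at 6 h are shown first, because many enzymes of the route stood above vehicle together. RefSeq promoters (build GRCm38.p6) were found for 26 of the 33 symbols, and the 250 bases before the transcription start were searched on both strands. Sqle, Fdps, Fdft1, Scd1, Scd2, Stard4 and Abcg1 had no entry and were not searched. Of the 26 searched, Hmgcs1 is the only one with the exact letters TCACNCCAC, the core of a sterol regulatory element. Idi1, Msmo1 and Cyp51 had, beside Hmgcs1, the highest 6 h ratios among sterol genes with a promoter entry, a choice made after their values were seen. Sqle and Fdps, also among the highest, have no sequence here because they had no promoter entry. Abca1 and Fasn are shown for comparison. The positions are chr13:119690101-119690350 (plus strand) for Hmgcs1, chr13:8885356-8885605 (plus) for Idi1, chr8:64733579-64733828 (minus) for Msmo1, chr5:4104698-4104947 (minus) for Cyp51, chr4:53159896-53160145 (minus) for Abca1 and chr11:120824548-120824797 (minus) for Fasn. Each sequence runs 5′ to 3′ in the direction of the gene and ends at the base before the start. Capitals mark the sterol element core and each CCAAT box, which reads ATTGG on the other strand.
Hmgcs1: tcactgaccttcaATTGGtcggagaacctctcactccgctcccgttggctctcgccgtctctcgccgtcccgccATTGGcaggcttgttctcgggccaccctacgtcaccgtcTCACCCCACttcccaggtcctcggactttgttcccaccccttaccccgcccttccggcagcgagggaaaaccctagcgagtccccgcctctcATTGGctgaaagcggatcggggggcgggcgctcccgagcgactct
Idi1: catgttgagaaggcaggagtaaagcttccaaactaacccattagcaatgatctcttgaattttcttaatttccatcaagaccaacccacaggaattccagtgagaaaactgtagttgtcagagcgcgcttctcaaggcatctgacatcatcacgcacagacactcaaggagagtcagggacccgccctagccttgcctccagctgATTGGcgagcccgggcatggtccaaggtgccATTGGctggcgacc
Msmo1: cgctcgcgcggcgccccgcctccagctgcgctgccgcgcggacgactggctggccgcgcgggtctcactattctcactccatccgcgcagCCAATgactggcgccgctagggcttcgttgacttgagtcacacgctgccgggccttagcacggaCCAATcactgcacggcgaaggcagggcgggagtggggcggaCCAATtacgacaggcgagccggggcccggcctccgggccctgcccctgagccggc
Cyp51: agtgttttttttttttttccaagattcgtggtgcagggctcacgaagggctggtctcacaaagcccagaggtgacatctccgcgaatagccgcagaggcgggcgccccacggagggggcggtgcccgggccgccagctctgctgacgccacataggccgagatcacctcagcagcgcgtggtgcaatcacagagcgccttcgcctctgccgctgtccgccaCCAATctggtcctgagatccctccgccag
Abca1: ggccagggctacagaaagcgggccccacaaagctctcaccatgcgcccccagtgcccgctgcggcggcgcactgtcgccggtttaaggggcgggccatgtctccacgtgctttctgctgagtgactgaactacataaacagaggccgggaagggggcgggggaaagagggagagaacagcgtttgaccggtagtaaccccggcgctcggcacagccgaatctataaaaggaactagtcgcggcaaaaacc
Fasn: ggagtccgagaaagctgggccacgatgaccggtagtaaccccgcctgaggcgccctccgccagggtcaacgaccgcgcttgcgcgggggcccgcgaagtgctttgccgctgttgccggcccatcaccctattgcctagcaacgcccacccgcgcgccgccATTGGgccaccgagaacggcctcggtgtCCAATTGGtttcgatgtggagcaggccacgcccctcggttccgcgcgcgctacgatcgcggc

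The CCAAT box was common before the sterol synthesis genes. It was found for 14 of the 15 with a promoter entry, Acat2 being the one without, and for 2632 of the 6576 array genes with an entry. The 15 include Acat2 and Pmvk, which were not on the array. Within the last 100 bases before the start it was found for 13 of these 15 and for 25.6% of the array genes. In Hmgcs1 boxes begin 237, 176 and 45 bases before the start and the sterol element core 137 bases before it. In Idi1 boxes begin 45 and 14 bases before the start, in Msmo1 160, 96 and 55, and in Cyp51 29.

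Of 5 fatty acid synthesis genes with an entry (Acly, Acaca, Fasn, Elovl6 and Fads2), 1 (Fasn) had a CCAAT box. Of 3 transport and efflux genes (Abca1, Nr1h2 and Nr1h3), none had. All 3 control genes, Insig1, Srebf1 and Srebf2, had one. These sets differ from those read on the array. Acaca, Fads2, Nr1h2 and Srebf2 were not on it, and Scd1, Scd2 and Abcg1, which were, had no entry. The sterol element core was present for 1.44% of array genes, and for 1 of the 15 sterol genes. The letters CACGTG, an E-box, were found for 3 of the 15 (Dhcr7, Hsd17b7 and Sc5d) against 9.93% of array genes. The direct repeat bound by LXR and the palindrome bound by the estrogen receptor were searched by their exact consensus letters only. Neither was found before any member, but these letters were found for only 0 and 2 of the 6576 array genes. With letters so rare, the search cannot decide whether members have such elements. Elements that differ from these letters were not searched for, in Abca1 and Fasn as in the other members. A gene with several entries was counted if any of them matched, and a match describes letters and not a bound site.

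**Figure D1:**
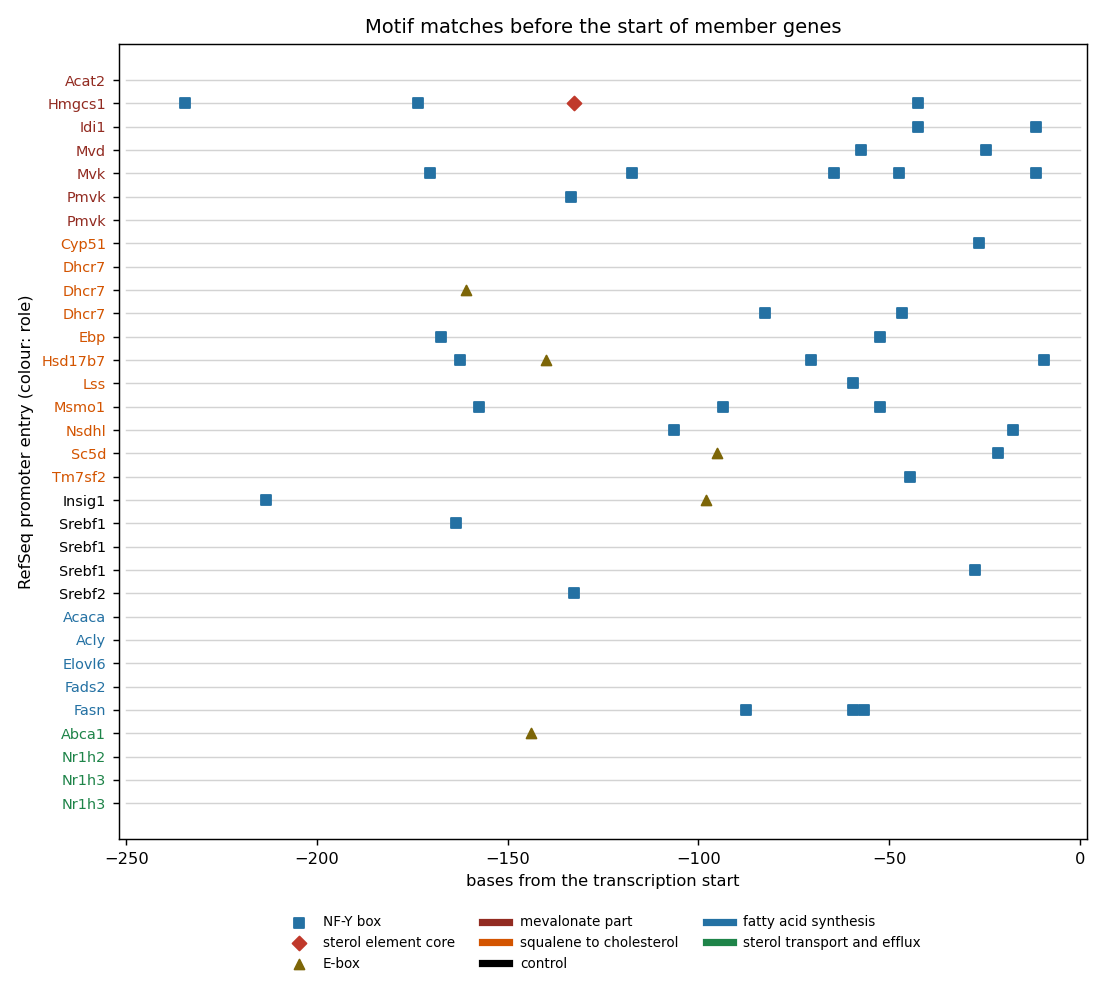
Matches to the CCAAT (NF-Y) box, the sterol element core and the E-box in each RefSeq promoter entry of a member gene, by distance in bases from the transcription start. Blue squares fill most sterol synthesis rows near the start, while among fatty acid and efflux rows only Fasn has them.

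Sterol synthesis genes were the members that reached 2-fold above vehicle, and they did so from 6 h on. Of the 16 on the array, 0, 7, 5 and 9 were at least 2-fold higher at 1, 6, 12 and 24 h, and none was 2-fold lower at any of these times. Among all genes at or above the floor on either array compared, the shares 2-fold higher were 0.928%, 6.91%, 6.71% and 3.69% at 1, 6, 12 and 24 h. Over all 8251 named genes, detected or not, they were 0.679%, 5.04%, 4.9% and 2.71%. The 16 genes had median log2 ratios of 0.00, 0.73, 0.35 and 1.09 at the same times, while that of all measured genes was -0.01, -0.05, -0.04 and -0.04. The median of a list counts as 0 each member that neither array detected. Because 6 of the 16 lay below the floor in vehicle, these values depend on where the floor is set. With a lower floor, at the 20th percentile of all signals, the median was 1.58 at 6 h and 1.21 at 12 h, with 9 genes at 2-fold at 12 h. With a higher one, at the 60th percentile, 5 genes were at 2-fold at 24 h.

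Of the 16, 7 had their highest signal at 6 h, 8 at 24 h, and 1 (Sc5d, at 145.0 and just above the floor) at 12 h. None was highest in vehicle or at 1 h. Among the 7, Hsd17b7 (144.5) was also just above the floor. Lss (310.5 at 6 h and 302.1 at 24 h) and Tm7sf2 (451.0 and 447.3) differed little between these arrays. The same count was not made over all genes, so it describes the members only. By list median the early steps stood above the late ones. The 5 genes of the mevalonate part had medians of 1.73, 1.20 and 1.88 at 6, 12 and 24 h. The 11 from squalene to cholesterol had 0.55, 0.15 and 0.62. Of these 11, Lss, Msmo1, Hsd17b7, Sc5d and Dhcr7 lay below the floor in vehicle, and of the 5, Mvd. Their ratios are bounds or count as 0, so both medians depend on the floor. Single genes overlapped: the largest folds at 6 h were Idi1 (11.8, early), Sqle (7.30, late), Msmo1 (at least 5.64, late) and Fdps (5.10, early). This difference between parts was not tested.

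**Figure D2:**
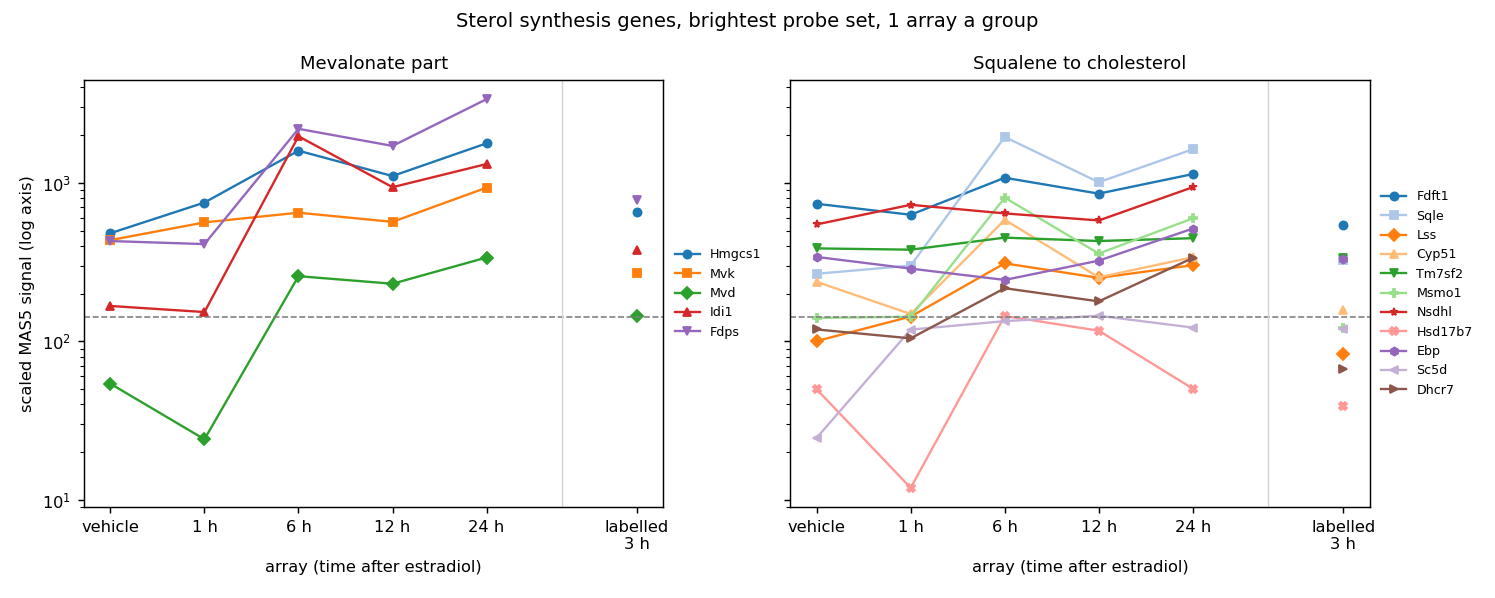
Scaled MAS5 signal on a log axis for the sterol synthesis genes on each array, 1 array a group, with the array labelled 3 h apart on the right and the floor of 142.8 as a dashed line. Idi1, Fdps, Sqle, Msmo1 and Hmgcs1 lie far above their vehicle values at 6, 12 and 24 h, with a lower point at 12 h.

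Hmgcs1 encodes the enzyme that makes HMG-CoA, the precursor of mevalonate. Its signal was 481 in vehicle and 751, 1594, 1103 and 1775 at 1, 6, 12 and 24 h. The signal was 1.56-fold above vehicle at 1 h, the largest ratio of the 16 sterol genes then by their brightest probe sets, and 3.31-fold, 2.29-fold and 3.69-fold above it at 6, 12 and 24 h. Set against the average of vehicle and 1 h, its 12 h log2 ratio was 0.88, under 2-fold.

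Mevalonate kinase (Mvk) and mevalonate diphosphate decarboxylase (Mvd) turn mevalonate into isopentenyl diphosphate. Mvk read 435 in vehicle and 563, 648, 567 and 932 at 1, 6, 12 and 24 h, and so passed 2-fold at 24 h only, at 2.14-fold. That log2 ratio was under 2-fold against the average of vehicle and 1 h (0.91) and as the median over both probe sets (0.55). Its other probe set was below the floor on every array. The one used carries the suffix r, which Affymetrix gives to probe sets that did not meet all design rules. Mvd was below the floor in vehicle (54.0) and at 1 h (24.1) and read 258, 231 and 338 at 6, 12 and 24 h. It was at least 1.80-fold, 1.62-fold and 2.37-fold above vehicle, and passed the floor on all 3 later arrays but not on the first 2.

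Idi1 encodes the isomerase that converts isopentenyl diphosphate to its reactive isomer. Its signal was 167 in vehicle and 153, 1966, 938 and 1314 at 1, 6, 12 and 24 h. The ratio to vehicle was 11.8-fold at 6 h, 5.62-fold at 12 h and 7.86-fold at 24 h. Among measured genes it ranked 4 of 6021, 16 of 6025 and 22 of 6070 from the highest ratio at these times. The vehicle and 1 h signals sit close to the floor, so the size of these folds depends on a dim reference.

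Fdps encodes farnesyl pyrophosphate synthase, whose product feeds both sterols and the lipid anchors of proteins. Its brightest probe set read 429, 411, 2191, 1709 and 3370 in vehicle and at 1, 6, 12 and 24 h. That is 5.10-fold above vehicle at 6 h, 3.98-fold at 12 h and 7.85-fold at 24 h, the last being its highest point. A second probe set read 499, 436, 1286, 1216 and 2165 on the same arrays, with log2 ratios of 1.37, 1.28 and 2.12 at the later times. It carries the suffix f, which marks probes shared by related sequences. The remaining 2 of its 4 probe sets were below the floor on all 6 arrays. The median over all 4, with those at 0, was a log2 ratio of 0.68 at 6 h and 0.64 at 12 h.

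Squalene synthase (Fdft1), which commits farnesyl units to sterol, differed less from vehicle. It read 737 in vehicle and 629, 1076, 854 and 1135 at 1, 6, 12 and 24 h, and its largest ratio was 1.54-fold at 24 h. Its neighbour in the route differed more. Squalene epoxidase (Sqle), a rate-limiting oxygenase, read 267, 301, 1946, 1008 and 1628 on these arrays, and stood 7.30-fold, 3.78-fold and 6.10-fold above vehicle at 6, 12 and 24 h. It ranked 15 of 6021 genes at 6 h and 29 of 6070 at 24 h.

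Lanosterol synthase (Lss) and lanosterol demethylase (Cyp51) form and trim the ring system. Lss was below the floor in vehicle (100.4), read 143 at 1 h and then 311, 251 and 302, so that it was at least 2.17-fold higher at 6 h and at least 2.12-fold at 24 h. With the higher floor these calls of Lss, and those of Mvd and Dhcr7 at 24 h, were lost, since both arrays lay below it. Cyp51 read 237 in vehicle and 149, 584, 253 and 339 at 1, 6, 12 and 24 h. Its 6 h value alone was past 2-fold (2.46-fold), and at 1 h it was 1.59-fold lower, the lowest ratio of the sterol genes then. With the higher floor its 6 h log2 ratio was 0.73.

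Msmo1 encodes the sterol methyl oxidase that acts after Cyp51. It read 140 in vehicle, just below the floor, and 143, 806, 358 and 596 at 1, 6, 12 and 24 h. The folds were at least 5.64, at least 2.51 and at least 4.18 at the later times, and with the higher floor its 12 h and 24 h log2 ratios were 0.02 and 0.76. Dhcr7, the last reductase of the route to cholesterol, was below the floor in vehicle (118.8) and at 1 h, read 216 at 6 h and 179 at 12 h, and was at least 2.35-fold higher at 24 h (336).

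The remaining late enzymes were under 2-fold by their brightest probe sets. Nsdhl, the sterol dehydrogenase, read 547 in vehicle and 938 at 24 h (1.72-fold). Its other probe sets had 24 h log2 ratios of 1.66 and 0.41, so the 3 probe sets differed in size. At 6 and 12 h the third had a log2 ratio of -0.16, opposite in sign to the brightest (0.23 and 0.08). Ebp, the sterol isomerase, was 1.40-fold lower at 6 h (341 to 244) and 1.51-fold higher at 24 h (514), and was the only sterol gene below vehicle at 6 h by its brightest probe set. Tm7sf2, a sterol reductase, stayed between 379 and 451 on the 5 arrays. Hsd17b7 was at the floor at 6 h (144.5) and below it elsewhere, and Sc5d at the floor at 12 h and below it elsewhere, so neither gives a usable ratio.

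The 12 h array was a low point within the response. Of the 16 sterol genes, 13 were lower at 12 h than at both 6 h and 24 h, against 22.4% of the 6096 genes at or above the floor on any of these 3 arrays. The exceptions were Hsd17b7, Ebp and Sc5d. From 6 to 12 h, Cyp51 had a log2 ratio of -1.21, Msmo1 of -1.17 and Idi1 of -1.07, and these 3 passed 2-fold, against 1.48% of all measured genes. None was 2-fold higher, against 1.84%. Sqle followed at -0.95 and Hmgcs1 at -0.53. From 12 to 24 h none of the 16 was at least 2-fold higher, against 3.16% of genes, and none 2-fold lower, against 2.71%. The median log2 ratio of the 16 was nevertheless 0.61, led by Fdps (0.98), Dhcr7 (0.91) and Msmo1 (0.74), with all measured genes at 0.01. Both steps use the same single 12 h array, so they are not independent, and some of the differences are small: Tm7sf2 had -0.07 and 0.06. With the higher floor 9 of the 16 had this order.

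Between 6 and 24 h the genes parted. Cyp51 (-0.78), Idi1 (-0.58), Msmo1 (-0.43) and Sqle (-0.26) had lower log2 signal at 24 h than at 6 h, while Ebp (1.08), Dhcr7 (0.63), Fdps (0.62), Nsdhl (0.55) and Mvk (0.52) had higher. Hmgcs1 (0.15) and Fdft1 (0.08) were close to their 6 h level.

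**Figure D3:**
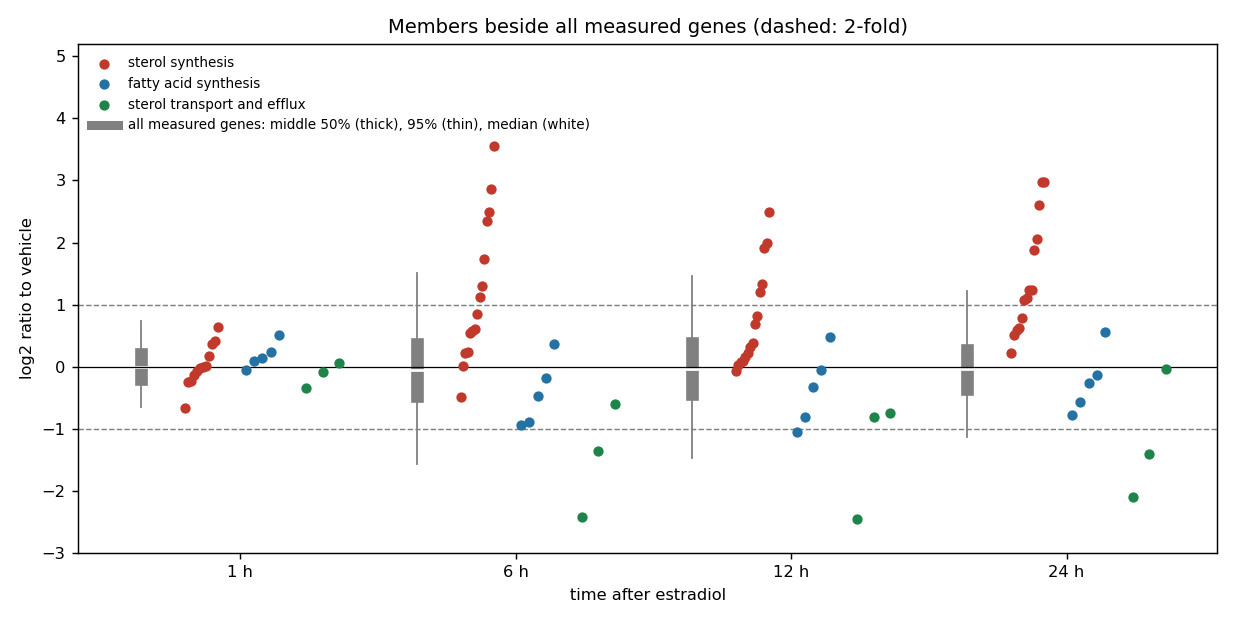
Log2 ratio to vehicle at each time for the members at or above the floor on either array, by role, beside the spread of all measured genes (thick bar the middle 50%, thin line the middle 95%). Sterol synthesis genes reach 3.56 at 6 h, fatty acid genes lie between -1.05 and 0.56 at all 4 times, and efflux genes reach -2.46.

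Markers of uterine cell types on the same arrays did not share this course as lists. The 14 uterine epithelium markers had medians of 0.03, 0.10 and 0.42 at 6, 12 and 24 h, with 3 at 2-fold higher each time and 1, 1 and 0 lower, and summed signals of 17427 in vehicle and 16323 to 22856 at the estradiol times. The 8 smooth muscle markers had medians of 0.23, 0.29 and 0.51. Sterol synthesis is active in every cell type, and the part of cell composition in its values was not tested.

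Srebf1 encodes one of the SREBP factors, and it was level. Its signal was 1946 in vehicle and 1991, 1970, 1484 and 1987 at 1, 6, 12 and 24 h, a range within 1.31-fold of vehicle. The lowest of these was at 12 h. The array reads RNA, so it does not show how much SREBP protein was in the nucleus.

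Fatty acid synthesis genes did not share the course of the sterol genes. Of the 5 on the array, none was 2-fold higher at any time, and 1 was 2-fold lower at 12 h. Their median log2 ratios were 0.14, -0.47, -0.33 and -0.27 at 1, 6, 12 and 24 h. The shares of measured genes at least 2-fold lower were 0.381%, 9.1%, 7.55% and 3.82% at these times, and 0.279%, 6.64%, 5.51% and 2.81% of all named genes.

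Acly, which supplies cytosolic acetyl-CoA to both routes, was the most even of them, at 2169, 2384, 1912, 2094 and 1985 in vehicle and at 1, 6, 12 and 24 h. Fasn, the fatty acid synthase, read 3002, 2887, 2173, 2385 and 2031, and was 1.38-fold, 1.26-fold and 1.48-fold lower at the later times. Elovl6, which lengthens palmitate, read 374 in vehicle and 398, 201, 180 and 310 at 1, 6, 12 and 24 h. It was 2.07-fold lower at 12 h by this probe set, the one fatty acid gene past 2-fold by its brightest probe set. Its other, dimmer probe set was below the floor in vehicle (128.9) and had log2 ratios of at least 0.51 at 6 h and at least 0.41 at 24 h, in the opposite direction. The 12 h log2 ratio was under 2-fold in 5 alternatives, from -0.98 with arrays scaled to the same median or by quantiles to -0.53 with the median over probe sets and -0.08 with the higher floor.

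The stearoyl-CoA desaturases, which put the double bond into saturated fatty acids, went apart. Scd1 was among the brighter genes, at 14123 in vehicle and 16578, 7329, 8013 and 8269 at 1, 6, 12 and 24 h. It was 1.93-fold, 1.76-fold and 1.71-fold lower at the later times, and its second bright probe set had log2 ratios of -0.99, -1.08 and -0.99. Scd2 read 5135 in vehicle and 7286, 6645, 7127 and 7568 after estradiol, 1.29-fold to 1.47-fold above vehicle. Its second probe set, whose suffix f marks probes shared by related sequences, had -0.11, 0.20 and -0.16 at 6, 12 and 24 h, so the direction for Scd2 was not shared by both.

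**Figure D4:**
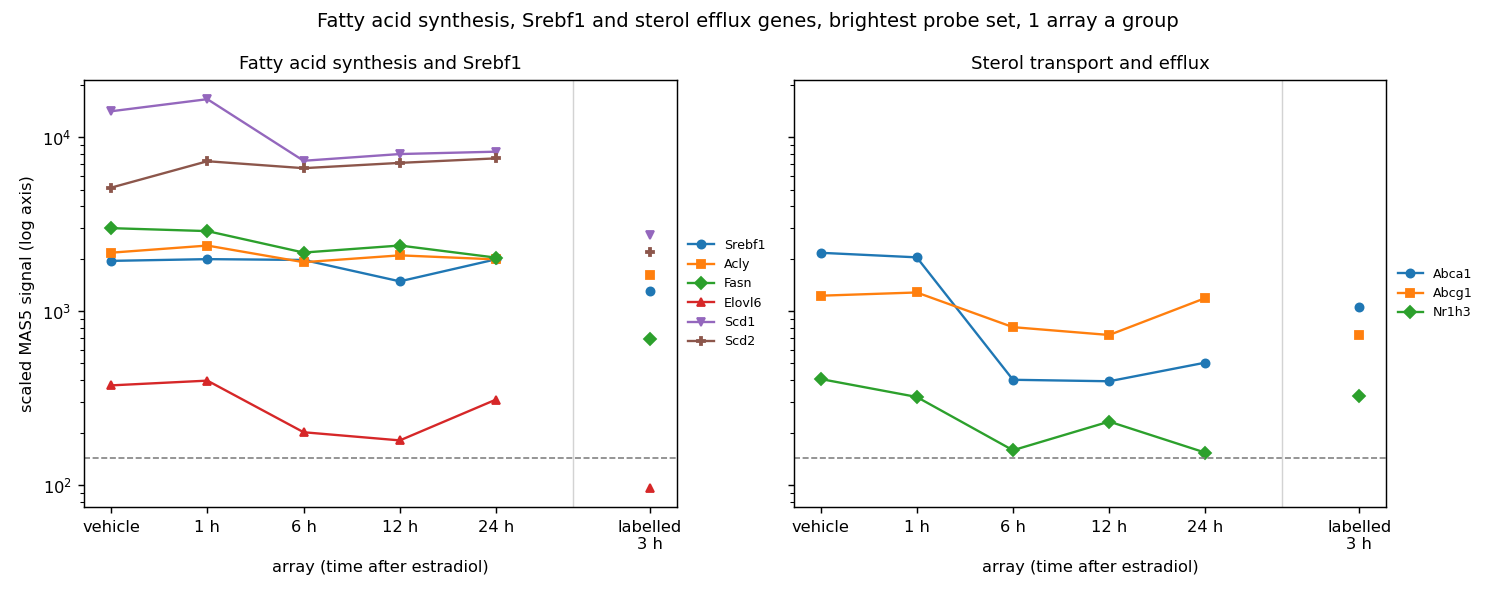
Scaled MAS5 signal on a log axis for the fatty acid synthesis genes and Srebf1 (left) and for the efflux genes (right) on each array, with the array labelled 3 h apart and the floor as a dashed line. Scd1 drops between 1 and 6 h and Scd2 does not, while Abca1 goes from 2166 to 403.

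Sterol efflux genes lay below vehicle at 6, 12 and 24 h, though Abcg1 was only 1.03-fold lower at 24 h. Abca1, the exporter that loads cholesterol onto apolipoprotein A-I, read 2166 in vehicle and 2039, 403, 395 and 506 at 1, 6, 12 and 24 h. It was 5.38-fold, 5.48-fold and 4.28-fold lower at the later times, ranking 21 from the lowest of 6021 genes at 6 h and 9 from the lowest of 6070 at 24 h. Its second probe set read 617, 845, 294, 206 and 333, with log2 ratios of -1.07, -1.58 and -0.89. Both probe sets therefore lay lower at all 3 later times, by different amounts. At 1 h their signs differed, with log2 ratios of -0.09 for the brightest and 0.45 for the second.

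Nr1h3, which encodes LXR alpha, read 407 in vehicle and 321, 158, 232 and 153 at 1, 6, 12 and 24 h. It was 2.57-fold lower at 6 h and 2.65-fold lower at 24 h. These later signals are close to the floor, and with the higher floor both log2 ratios were -0.21. Abcg1, the partner exporter to high-density lipoprotein, read 1227, 1280, 809, 729 and 1189, and so was 1.52-fold and 1.68-fold lower at 6 and 12 h and 1.03-fold lower at 24 h. Of the 3 genes, 2, 1 and 2 were at least 2-fold lower at 6, 12 and 24 h. The shares 2-fold lower were 9.1%, 7.55% and 3.82% of measured genes, and 6.64%, 5.51% and 2.81% of all named genes.

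Adipocyte markers were lower on the same arrays as the fatty acid genes. The labels state that tissue adhering to the uterus was taken off before freezing. Of 15 such markers 11 were on the array. Their summed signal was 17358 in vehicle and 18649 at 1 h, and 9844, 7582 and 7070 at 6, 12 and 24 h. Their median log2 ratios were -0.77, -0.99 and -0.82 at these later times, with 1, 5 and 4 of the 11 at 2-fold lower and none higher. Of the defining markers, the adipocyte hormone gene Adipoq went from 4283 in vehicle to 1482 at 24 h, and Car3 from 3894 to 1012. Pparg was below the floor on all 5 arrays, and none of the other 10 was below the floor on all of them. The part of adipocyte RNA in the values of Scd1, Fasn, Elovl6 and Abca1 was not tested. The 8 macrophage and leukocyte markers, cells in which Abca1 and Nr1h3 are also known, had medians of -0.17, -0.30 and 0.11. Their summed signals were 7330 in vehicle and 5083, 5218 and 6452 at 6, 12 and 24 h. The 10 stromal markers had medians of -0.62, -0.11 and 0.21, and the 8 endothelial ones -0.32, -0.71 and -0.46. The lowest at 6 h were Pdgfra (log2 ratio -2.10) among stromal markers, and Vwf (-2.13 or lower) and Cldn5 (-2.06) among endothelial ones. At 6 h 4 of the 10 and 3 of the 8 were 2-fold lower, against 9.1% of measured genes. None was 2-fold higher, and 2 endothelial markers lay above vehicle. The part of these cell types was not tested either.

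**Figure D5:**
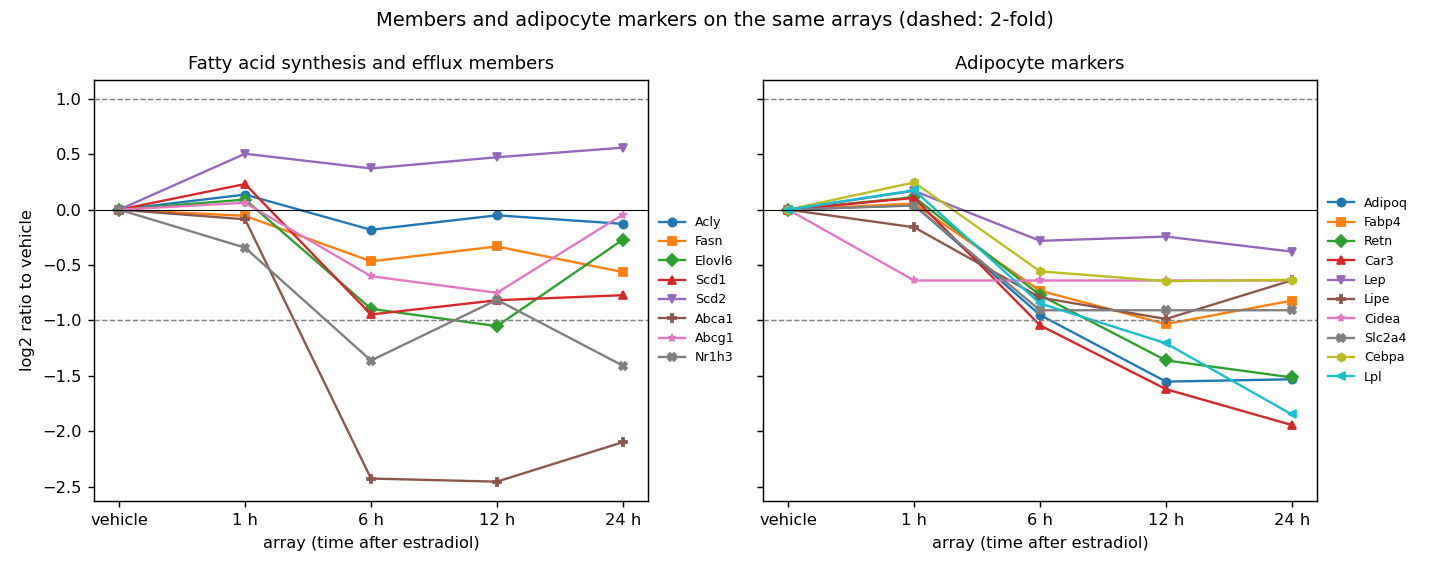
Log2 ratio to vehicle for the fatty acid and efflux members (left) and for 10 adipocyte markers (right; Pparg, below the floor throughout, is left out) at 1, 6, 12 and 24 h. Adipocyte markers lie at or below 0 from 6 h on, at -0.24 to -1.94, and Scd1 and Fasn lie within the same range. Abca1 lies lower by the brightest probe set drawn here, at -2.10 to -2.46. Its second probe set, not drawn, lies within the range of the adipocyte markers, at -0.89 to -1.58.

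Other genes of these pathways, which were not members, were followed by list. Of 46, 30 were on the array, and the others were not analysed here. None of these 30 was at least 2-fold higher at 1, 6, 12 or 24 h. The 3 of the prenyl branch (Ggps1, Fnta and Fntb) had medians of -0.32, -0.11 and -0.18 at 6, 12 and 24 h, and the one farthest from vehicle was Ggps1 at 24 h (468 to 243, 1.92-fold lower). These genes are named because they make up their whole list. Mbtps1, a protease that activates SREBP and the only gene of its list on the array, had log2 ratios of -0.43, -0.79 and -0.30.

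Few genes of sterol uptake and trafficking were 2-fold from vehicle. Of the 7 on the array, 1 was 2-fold lower at 6 h (Npc1, which exports cholesterol from lysosomes, 2.04-fold) and 1 at 12 h (its partner Npc2, 2.17-fold), and none at 24 h, when Npc2 was at 2855 against 2895 in vehicle. A count of 1 in 7 is close to the shares of all measured genes 2-fold lower, 9.1% at 6 h and 7.55% at 12 h.

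Among 6 efflux genes and LXR targets, 2 were 2-fold lower at 6 h (Pltp, a phospholipid transfer protein, 2.12-fold, and Abca2, 2.10-fold), and 1 at 12 h and at 24 h. That gene was Apoe, the apolipoprotein that carries exported sterol, which read 13817 in vehicle and 13110, 9212, 3823 and 4955 at 1, 6, 12 and 24 h. At 6 h its log2 ratio was -0.58 and that of Abca1 was -2.43, and both genes were lowest at 12 h. Beside the counts of these 6 genes, 9.1%, 7.55% and 3.82% of all measured genes were 2-fold lower at 6, 12 and 24 h.

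On the array labelled 3 h the members stood differently. Idi1 was the only sterol gene at 2-fold above vehicle there (375, 2.24-fold), against 11.4% of measured and 8.56% of all named genes, and Fdps was 1.83-fold above. Of the 5 fatty acid genes 4 were at least 2-fold lower, against 13.0% of measured and 9.76% of all named genes, with Scd1 at 2747 (5.14-fold), Fasn at 691 (4.34-fold), Scd2 at 2188 (2.35-fold) and Elovl6 at least 2.62-fold lower. Abca1 read 1050, 2.06-fold below vehicle. Since most epithelial and smooth muscle markers were low on this array, these values are not read as a time point between 1 and 6 h.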

How the data were processed

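RNA from pooled uteri was hybridised to 6 arrays, 1 a group, so each group is 1 sample. Per the submitters' processing notes the authors used MAS5 (version and settings not given in the sources used here). The deposited values are linear signal intensity, 1 per probe set, and from the values the authors had scaled each array to a common trimmed mean (500.2 to 500.3 after removing 2% at each end). Of 12488 probe sets, 66 controls were left out, and 10833 of the 12422 used had 1 gene symbol in the platform annotation, 396 several and 1193 none. Only the first kind was named, with 10817 symbols updated through a RefSeq gene table (GRCm38.p6).

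Arrays were rescaled to the same 2% trimmed mean, signals under the 40th percentile of all values (142.8) were raised to it, and log2 was taken. At or above this floor were 58.8% to 61.7% of probe sets on an array. A gene was read by its brightest probe set (highest average log2 value over the 6 arrays), and a fixed 2-fold minimum served to count genes, without a test, since no replicate exists. The number of arrays limits the precision. The steps were tested on simulated data, with folds put only into genes well above the floor, so dim genes were not covered. The members, lists and settings were chosen with earlier results of these data known. Named are all members, and, of 46 further pathway genes in 5 lists, those at 2-fold. Marker lists covered adipocytes, uterine epithelium, smooth muscle, stroma, leukocytes, endothelium, skeletal muscle and pancreatic acini. Of 10 stromal markers 4, 3 and 0 were 2-fold lower at 6, 12 and 24 h, and 0, 0 and 3 were 2-fold higher. Of 8 endothelial markers 3, 3 and 2 were 2-fold lower and none was 2-fold higher. Among all measured genes, 9.1%, 7.55% and 3.82% were 2-fold lower and 6.91%, 6.71% and 3.69% were 2-fold higher at these times. Python 3.11.15, numpy 2.4.6 and pandas 2.3.3 were used.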

Additional observations from a re-analysis of the deposited data

How the results depend on the processing

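In all, 7 alternatives were planned and 2 were added after seeing the data (leaving out the array labelled 3 h, and leaving out probe sets with suffix f, i or r). A list value is said to have moved where it shifted by more than 1.5-fold. Of the 139 list values under the alternatives, 131 did not move and 8 did, all 8 with another treatment of low signals. With the floor at the 20th percentile, the sterol median was 1.58 at 6 h and 1.21 at 12 h, with 9 genes at 2-fold at 12 h. Without a floor and with a pseudocount of 32, the 12 h median was 0.98 and the 12 h count 8. With the floor at the 60th percentile, the 24 h sterol count was 5, and the transport and efflux median was -0.60 at 6 h and -0.21 at 24 h. Of 27 member ratios at 2-fold, 10 had a value under it in at least 1 alternative, and 4 others (Lss at 6 and 24 h, Mvd and Dhcr7 at 24 h) were below the 60th percentile floor on both arrays, so 14 lost the call somewhere. No ratio at 2-fold with a value changed sign. Low signal limits Mvd, Lss, Msmo1, Dhcr7, Hsd17b7 and Sc5d, which lay below the floor in vehicle. No paired analysis was possible because each group has 1 array.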

Other observations

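Genes of fatty acid supply and esterification outside the set gave further values on these arrays. Of the 13 on the array, 2 (Elovl3 and Cd36) were below the floor on all 5 arrays, and none was 2-fold higher. At 6, 12 and 24 h 1, 2 and 1 were 2-fold lower, with medians of 0.00, -0.05 and 0.05. Counts of 1 or 2 in 13 are close to the shares of all measured genes 2-fold lower, 9.1%, 7.55% and 3.82% at these times. Lpin1, a phosphatidate phosphatase of triglyceride synthesis, read 656 in vehicle and 614, 199, 184 and 354 at 1, 6, 12 and 24 h, and was 3.30-fold and 3.56-fold lower at 6 and 12 h. Lpl, the lipoprotein lipase that is also an adipocyte marker here, read 1550, 1749, 862, 672 and 430 on these arrays and was 3.60-fold lower at 24 h. Lpin1 was higher at 24 h than at 12 h, and Lpl was lower.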
